A study of Mus musculus with 6 samples.

Results

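The genes described here are 10 members of the contact machinery of lens cells: the Eph receptor genes Epha2 and Epha5, the ephrin genes Efna5, Efnb1 and Efnb2, the cadherin genes Cdh1 and Cdh2, and the catenin genes Ctnnb1, Ctnna1 and Ctnnd1. They were chosen by name as Eph and ephrin genes with known lens roles and as components of the adherens junction, and every probe annotated to one of them was read. This gave 24 of the 45281 probes on the array, for 10 of 19057 named genes. Lens RNA was measured on 6 Illumina bead arrays, 3 from mice labelled Tdrd7 null and 3 from mice labelled Tdrd7 heterozygous. All 6 came from lens at postnatal day 4 of a mixed strain background, C57BL/6J and C3A.Blia, and the heterozygous mice, which serve as controls, carry 1 mutated Tdrd7 allele themselves. The labels do not say how the allele was made, whether lenses were pooled or whether each array stands for another mouse, so a p-value here covers the spread between these arrays alone. The letters a, b and c name the arrays of each genotype in file order and pair nothing, and 3 values of a genotype are given in that order.

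Ephrins are membrane-bound ligands, and Eph receptors are receptor tyrosine kinases on the neighbouring cell, so the pair signals where cells touch. Cadherins join cells through their outer domains and are tied to actin inside the cell by catenins. In the lens, the epithelium at the front carries E-cadherin and N-cadherin, the elongated fiber cells keep N-cadherin, and loss of EphA2 or ephrin-A5 is known to disturb the packing of these cells and can lead to cataract. The product of Tdrd7 is a Tudor domain protein found in RNA granules of the cytoplasm, and mice and people without it are known to develop cataract.

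Between 15007 and 15765 probes were detected on the null arrays and between 13901 and 14884 on the heterozygous arrays, at a detection p under 0.05. Tdrd7 fell by 3.48 on the log2 scale in null lens (SE 0.153, limma adjusted p = 1.47e-05), and its values did not overlap between the groups. Of the lens fiber markers 6 of 9 were measured and 0 called, 5 with a higher and 1 with a lower mean in null lens. Mip, a fiber water channel, stood at 15.33 ± 0.06 in null and 15.21 ± 0.06 in heterozygous lens (log2 signal, SD, n = 3 each). The differences ran from -0.34 for Cryaa to 1.92 for Lgsn (SE 0.909), which was not detected on heterozygous array c. Of the lens epithelium markers 6 of 6 were measured. Null array b stood apart: the mean absolute distance of its tested probes to the mean of the other 5 arrays was 0.354 log2 units, against 0.168 and 0.21 on the other null arrays and 0.185 to 0.191 on the heterozygous arrays.

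All 10 genes could be measured, though not by every probe. Of the 24 probes 10 were detected on all 6 arrays and 7 on none, and 14 were detected on at least 3 arrays and tested. Of the 16 probes annotated by a RefSeq mRNA 10 were detected on all 6 arrays, against 0 of the 7 annotated by a cDNA clone. Of the 4 tested probes that missed some arrays, 1 of Cdh2 and 1 of Ctnnb1 were detected on all 3 heterozygous arrays, enough to be tested without a null array, and both had the lower mean in null lens. A log2 signal here is that of the normalised, background-corrected signal plus an offset of 16, so differences of dim probes are compressed.

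No member was called as changed in null lens. Of the 14 tested probes 0 passed an adjusted p of 0.05 with limma, where 0.0137% of all 14636 tested probes did. At an unadjusted p under 0.05 there were again 0 of 14, where 4.11% of all tested probes passed, and the smallest unadjusted p of a member was 0.167. The groups were free of overlap for 0 of the 14 probes, against 10.9% of all tested probes, 5.43% with null lens above and 5.47% with null lens below. The brightest tested probe of each gene, which stands for the gene below, was lower on average in null lens for 10 of 10 members. Their median difference was -0.08. Of the 8626 tested genes 4502 were lower, with a median of -0.01. The count of 10 members rested on null array b, without which 5 of 10 were lower. Leaving out heterozygous array b gave 6, and leaving out null array b together with heterozygous array c gave 7. In bulk lens RNA, fewer cells of a type and less RNA per cell cannot be told apart in any of these values.

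**Figure D1:**
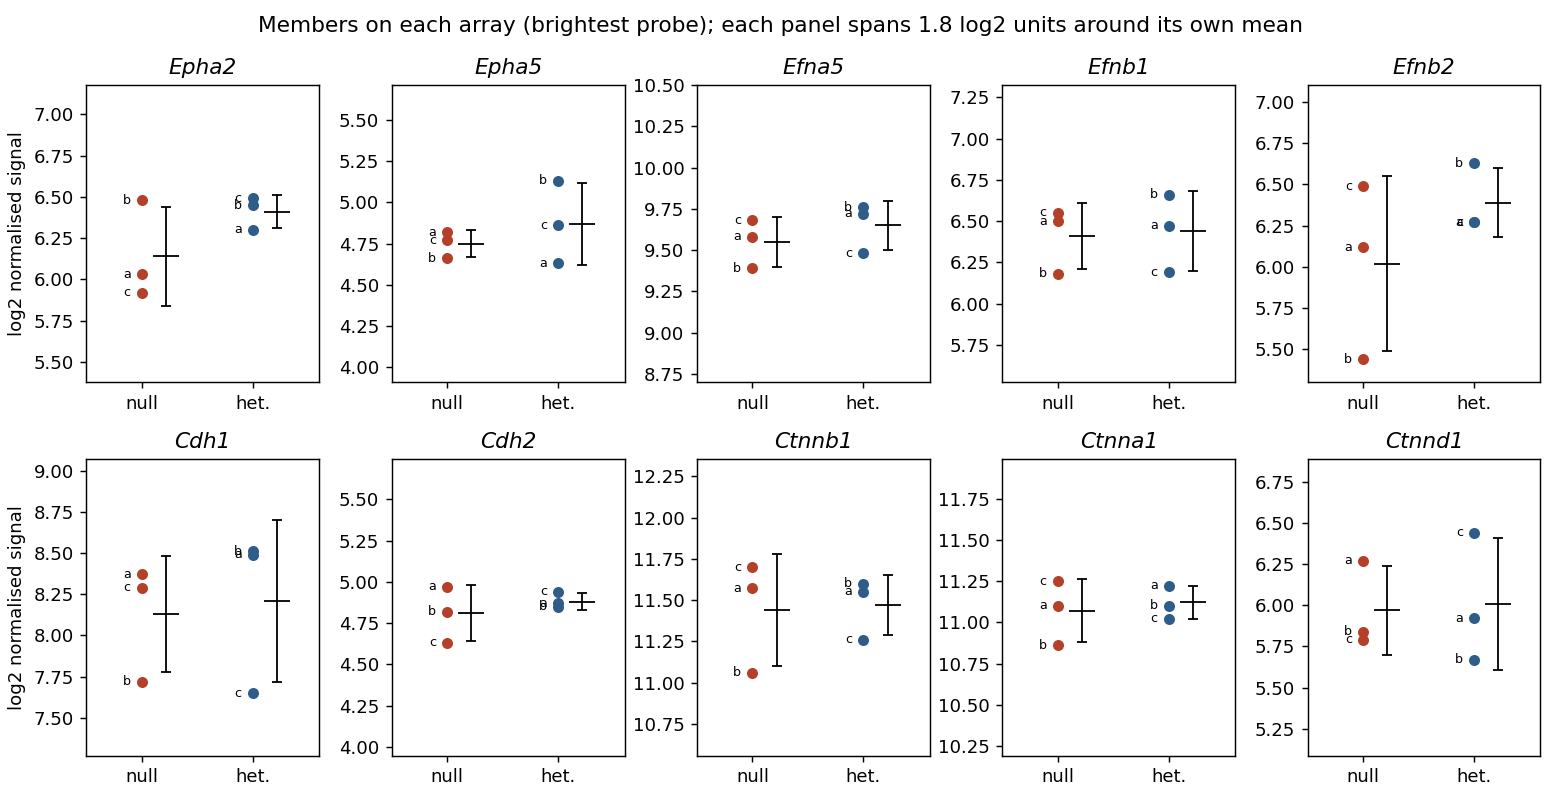
Log2 normalised signal (vertical axis) of the brightest tested probe of each member on the 3 null arrays (red, left) and the 3 heterozygous arrays (blue, right), with letters naming the arrays and bars giving mean ± SD. Every panel spans 1.8 log2 units, and the groups overlap in all 10 panels.

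Epha2 and Efnb2 had the largest mean differences of the 10 members, and their promoters are shown as the regulatory start of both genes. Sequences are RefSeq promoter windows of assembly GRCm38.p6, from 250 bases before to 50 bases after the transcript start, which matched 7 of the 10 members. The Epha2 window lies at chr4:141300971-141301270 on the + strand and the Efnb2 window at chr8:8661193-8661492 on the - strand, both written 5′ to 3′, and capitals mark the GC box GGGCGG on either strand, the usual binding motif of Sp1.
Epha2: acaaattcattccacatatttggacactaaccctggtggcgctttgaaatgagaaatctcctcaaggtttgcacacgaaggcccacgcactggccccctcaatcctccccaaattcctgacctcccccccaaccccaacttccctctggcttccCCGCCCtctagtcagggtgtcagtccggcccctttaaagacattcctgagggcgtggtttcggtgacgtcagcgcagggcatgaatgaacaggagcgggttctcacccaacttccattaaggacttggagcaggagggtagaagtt
Efnb2: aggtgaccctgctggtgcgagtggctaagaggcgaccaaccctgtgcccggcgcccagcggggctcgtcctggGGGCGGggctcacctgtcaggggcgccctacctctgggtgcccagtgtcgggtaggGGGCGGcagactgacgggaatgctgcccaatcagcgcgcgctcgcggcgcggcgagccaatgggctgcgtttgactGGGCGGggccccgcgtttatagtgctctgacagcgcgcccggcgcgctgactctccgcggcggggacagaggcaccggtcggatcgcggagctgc
The Epha2 window holds 1 match and the Efnb2 window 3 matches, and 35.7% of all 32851 promoter windows hold at least 1. Of the other members with a window, Efna5 has 4 matches, Epha5 2, Ctnnb1 3 in each window, and Efnb1 and Ctnnd1 0. The match counts were not tested against the array values. A match describes these letters and not a bound site.

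Epha2, the main Eph receptor of lens fibers, had log2 signals of 6.03, 6.48 and 5.92 on the null arrays, against 6.30, 6.45 and 6.49 on the heterozygous arrays. Null arrays a and c were the 2 lowest of the 6, while null array b lay among the heterozygous arrays, so the groups overlapped. The difference was -0.27 (SE 0.18, 95% interval -0.67 to 0.13, limma adjusted p = 0.964). In fold terms the null signal was 0.83 of the heterozygous one, and the interval runs from 0.628 to 1.1. Without null array b the gene Epha2 differed by -0.44, still at a limma adjusted p of 0.752, and without null array c by -0.16.

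Epha5, a receptor for A-type ephrins known mainly from the nervous system, was close to background. Of its 6 probes 3 were detected on no array and 2 on 1 array of each group. The remaining probe, detected on 2 null and 2 heterozygous arrays, had log2 signals of 4.82, 4.66 and 4.77 on the null arrays, against 4.63, 5.13 and 4.86 on the heterozygous arrays. The highest and the lowest value both belonged to heterozygous lens, and the difference of -0.12 (SE 0.168, limma adjusted p = 0.964) was smaller than the spread among the heterozygous arrays (SD 0.25). Its direction turned without heterozygous array b, where Epha5 differed by 0.01.

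Efna5, the gene of ephrin-A5, a lipid-anchored ligand, was detected on all 6 arrays by its brighter probe. Its log2 signals were 9.58, 9.39 and 9.68 on the null arrays, against 9.72, 9.76 and 9.48 on the heterozygous arrays. Heterozygous array c lay within the range of the null arrays. The difference was -0.10 (SE 0.158, 95% interval -0.45 to 0.25, limma adjusted p = 0.964). The dimmer probe of Efna5, detected on 1 null and 2 heterozygous arrays, differed by -0.06.

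Efnb1, an X-linked gene for a transmembrane ephrin, had log2 signals of 6.50, 6.18 and 6.55 on the null arrays, against 6.47, 6.66 and 6.19 on the heterozygous arrays. Each group held 1 low array, null array b and heterozygous array c, and the difference of -0.03 (SE 0.18, limma adjusted p = 0.992) was small beside it. Without null array b the gene Efnb1 differed by 0.09.

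Efnb2, the gene of ephrin-B2, another transmembrane ephrin, is also known from arterial endothelium. It had log2 signals of 6.12, 5.44 and 6.49 on the null arrays, against 6.27, 6.63 and 6.27 on the heterozygous arrays. Null array b was the lowest of the 6, and null array c lay within the heterozygous range. The difference was -0.37 (SE 0.252, 95% interval -0.93 to 0.20, limma adjusted p = 0.964), and without null array b the gene Efnb2 differed by -0.08. The endothelial and pericyte markers, of which 7 of 8 were measured, summed to a raw signal of 642.3 to 763.6 on the null arrays and 570.4 to 705.5 on the heterozygous arrays, background included. Of these 7 genes 6 had a higher mean in null lens, with a median difference of 0.48 and 0 called, while Efnb2 had the lower mean there. The groups did not overlap for 3 of them, Rgs5 (1.08, SE 0.179, limma adjusted p = 0.362), Flt1 (0.51) and Emcn (0.48), all with null lens above. Over all 8626 tested genes 451 had null lens above without overlap. The 3 genes had 3 detected arrays in null lens and 1, 1 and 0 in heterozygous lens. They could thus be tested through their null arrays, and a lack of overlap is no separate finding. The count of 6 and the median, which is the value of Emcn, include these genes and are no separate finding either. Kdr was among the 6, with 0.02 by its brightest probe and -0.38 by another tested probe. Cdh5, the defining endothelial cadherin, was detected on 1 null and 1 heterozygous array by 1 of its 2 probes and on none by the other. Their part in the Efnb2 values was not tested.

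**Figure D2:**
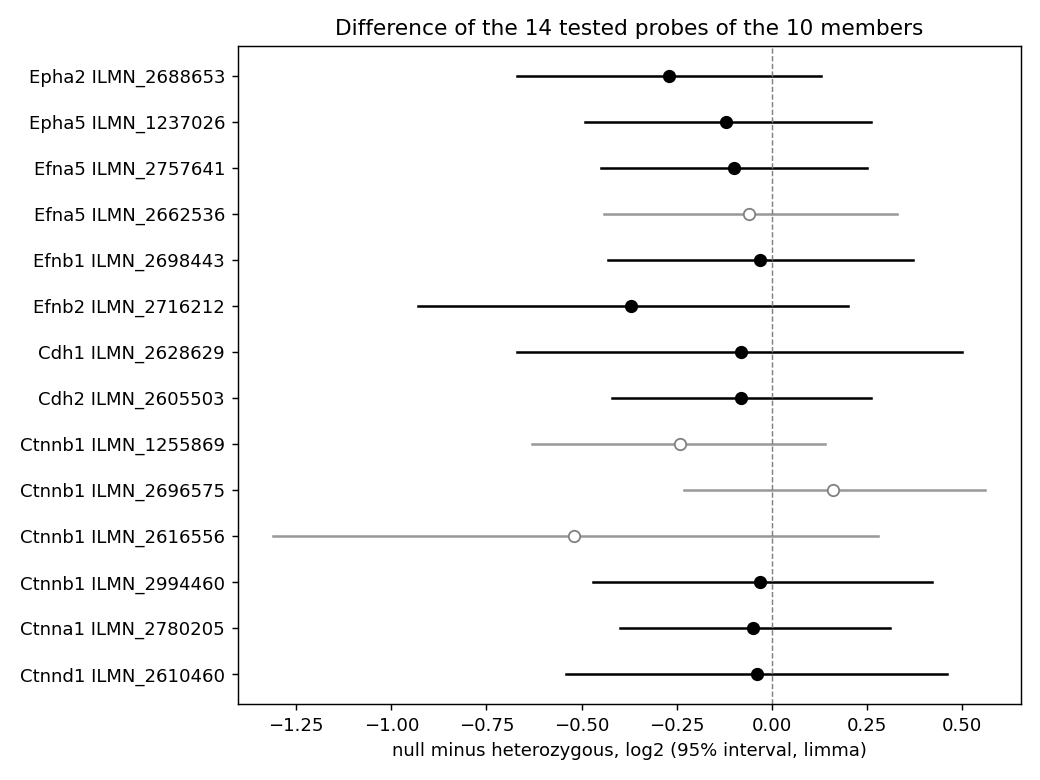
Null minus heterozygous log2 difference (horizontal axis) with its 95% limma interval for the 14 tested probes, one per row. Filled points mark the brightest probe of a gene and open points its other probes, and every interval includes 0.

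Cdh1 encodes E-cadherin, the cadherin of the lens epithelium. Its detected probe had log2 signals of 8.37, 7.72 and 8.29 on the null arrays, against 8.49, 8.51 and 7.65 on the heterozygous arrays. The values fell into 4 high arrays and 2 low ones, 1 of each genotype, null array b and heterozygous array c. The difference of -0.08 (SE 0.263, 95% interval -0.67 to 0.50, limma adjusted p = 0.983) was small beside the SD of 0.35 in null and 0.49 in heterozygous lens. Without those 2 arrays the gene Cdh1 differed by -0.16, without null array b alone by 0.12 and without heterozygous array c alone by -0.37. The second Cdh1 probe was detected on no array.

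By their brightest probes, Igfbp5 and Fbln1, listed as periocular mesenchyme markers, were lowest on null array b and heterozygous array c, as was Cdh1. Of 7 such markers 3 were measured. The collagen genes Col1a1, Col1a2 and Col3a1, and Dcn, were near background and detected on too few arrays to be tested. The values of the other 3 therefore do not show how much mesenchyme an array held. Set against the average of the remaining 5 arrays, Igfbp5 stood at -0.87 on null array b and at -1.07 on heterozygous array c, and Fbln1 at -0.54 and -0.91 on the same arrays. Mgp did not follow this, with 0.12 on null array b, -0.33 on heterozygous array c and its lowest value, -0.63, on heterozygous array a. Other tested probes were split on null array b, at -0.81 and 0.27 for Igfbp5 and at -0.38 and 0.07 for Fbln1. On heterozygous array c the same probes stood at -0.97 and -1.13 for Igfbp5 and at -0.36 and -0.49 for Fbln1. The median of the 3 markers stood at 0.67, -0.54 and 0.35 on the null arrays. On the heterozygous arrays it stood at 0.51, 0.39 and -0.91. Cdh1 deviated by 0.24, -0.53 and 0.14 on the null arrays and by 0.38, 0.40 and -0.63 on the heterozygous arrays. The summed raw signal of the mesenchyme markers was 773.6 to 1464 on the null arrays and 646.4 to 1447 on the heterozygous arrays. Most of it came from Igfbp5, with 1205 of the 1464 on null array a. The median of the lens epithelium markers was also lowest on the same arrays, by -0.11 on null array b and by -0.18 on heterozygous array c. These 6 markers were split on null array b, where 3 lay below the mean of the other arrays, while 5 did on heterozygous array c. On null array b Foxe3 stood at 0.50 and Sfrp1 at 0.42, against -0.81 for Fgfr2 and -0.34 for Gja1. The part of either cell type in the Cdh1 values was not tested.

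Cdh2 encodes N-cadherin, which is known from both lens epithelium and fibers. Its probes were near background here. The tested probe was detected on 2 null and 3 heterozygous arrays, with log2 signals of 4.97, 4.82 and 4.63 on the null arrays against 4.87, 4.85 and 4.94 on the heterozygous arrays. The heterozygous values lay inside the null range, and the difference was -0.08 (SE 0.152, limma adjusted p = 0.973). The other Cdh2 probe was detected on 2 null arrays and on 0 heterozygous arrays, and no fold is given for it because the null mean did not exceed the lowest detectable signal. Array signals of different probes cannot be set against each other, so the low signal says nothing of how Cdh2 compares with Cdh1 in amount.

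The balance of the 2 cadherins was compared as the log2 difference of Cdh1 minus Cdh2 within each array, of which only the change between groups is read. It was 3.40, 2.90 and 3.65 on the null arrays, against 3.62, 3.66 and 2.71 on the heterozygous arrays. Null array b and heterozygous array c were again the low ones. The group means differed by -0.01 (two-sided exact permutation test over the 6 arrays, p = 0.9), in a design whose smallest possible p is 0.1. The Cdh2 probe was near background throughout and not detected on null array c, so this measure largely restates Cdh1 and cannot show a change of Cdh2 or of the balance.

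Ctnnb1, the gene of beta-catenin, which binds the cadherin tail and also carries Wnt signals, was read by 4 tested probes that did not run together. The brightest had log2 signals of 11.57, 11.06 and 11.70 on the null arrays, against 11.55, 11.60 and 11.26 on the heterozygous arrays, a difference of -0.03 (SE 0.198, limma adjusted p = 0.993). Null array b and heterozygous array c were its 2 lowest arrays, as for Cdh1. The probe ILMN_2696575 of Ctnnb1 had 10.02, 10.06 and 10.30 on the null arrays, against 10.24, 9.92 and 9.73 on the heterozygous arrays, and it was the 1 of the 14 member probes with a higher mean in null lens (0.16, SE 0.177).

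The 2 remaining probes of Ctnnb1 were dimmer and had lower means in null lens. The probe ILMN_2616556 of Ctnnb1 ran against the brightest, with 6.09, 6.92 and 5.23 on the null arrays against 6.35, 6.56 and 6.88 on the heterozygous arrays. Null array b, the lowest array of the brightest probe, was the highest of this one. The difference of this probe was -0.52 (SE 0.356, 95% interval -1.31 to 0.28, limma adjusted p = 0.964), the largest of all member probes. The fourth probe of Ctnnb1, detected on 2 null and 3 heterozygous arrays, differed by -0.24 (SE 0.173).

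Ctnna1, the gene of alpha-catenin, which links beta-catenin to actin, had log2 signals of 11.10, 10.86 and 11.25 on the null arrays, against 11.22, 11.10 and 11.02 on the heterozygous arrays. The null arrays held both the highest and the lowest value. The difference was -0.05 (SE 0.16, 95% interval -0.40 to 0.31, limma adjusted p = 0.986), and without null array b the gene Ctnna1 differed by 0.06.

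Ctnnd1, the gene of p120-catenin, which holds cadherins at the membrane, was detected by 1 of its 4 probes, and the other 3 were detected on no array. The detected probe had log2 signals of 6.27, 5.84 and 5.79 on the null arrays, against 5.92, 5.67 and 6.44 on the heterozygous arrays. Heterozygous lens held both the highest and the lowest value, and the difference was -0.04 (SE 0.224, limma adjusted p = 0.992). On heterozygous array c, where Cdh1 was lowest, Ctnnd1 was at its highest, and without that array the gene Ctnnd1 differed by 0.17.

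The members did not vary alike over the arrays. On null array b 9 of 10 members lay below the mean of the other 5 arrays, with a median deviation of -0.27. Of all 8626 tested genes 4611 did, with a median of -0.04. On heterozygous array c 5 of 10 members did, with a median of -0.02, beside 4185 of the 8626 genes. The range over the 6 arrays ran from 0.34 log2 units for Cdh2 and 0.37 for Efna5 to 0.86 for Cdh1 and 1.19 for Efnb2. The Cdh2 probe lay near background, where differences are compressed, so its small range need not be that of the gene. Epha2 was the member above the mean of the other arrays on null array b, by 0.24.

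**Figure D3:**
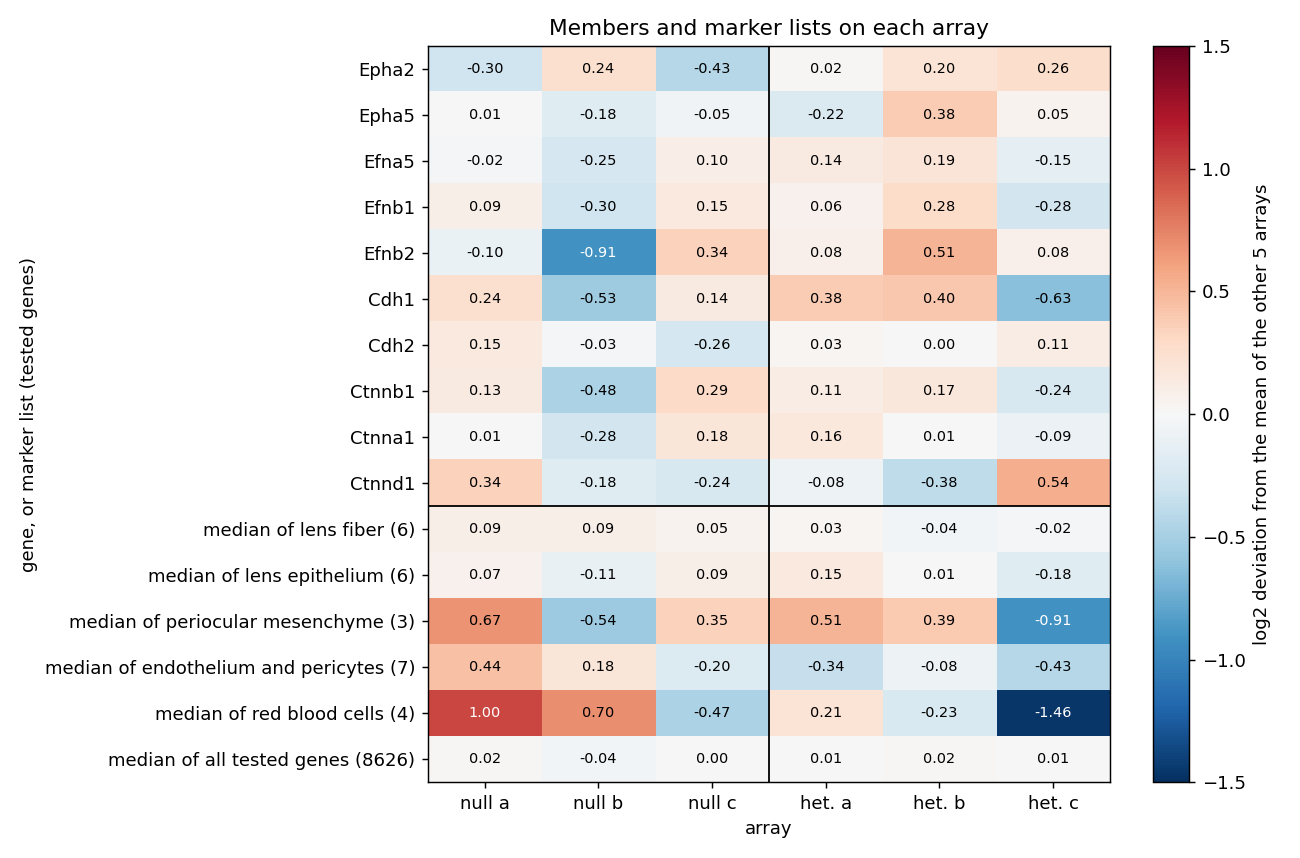
Log2 deviation of each array (columns) from the mean of the other 5 arrays for the 10 members (upper rows) and for the median of marker lists and of all tested genes (lower rows, number of tested genes in brackets). Null array b is low for 9 of 10 members, and Cdh1 and the median of the mesenchyme markers are low on null array b and heterozygous array c.

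The genes most like Epha2, Cdh1 and Cdh2 were found as the 3 tested genes with the smallest mean absolute difference, over the 6 arrays, of the log2 deviation from their own mean. For Epha2 these were St3gal3, a sialyltransferase gene (0.0362 log2 units), Oscp1 (0.0431) and Svbp, the gene of a vasohibin-binding protein (0.0442). In each of the 3 genes null arrays a and c were the 2 lowest and null array b lay among the heterozygous arrays, as for Epha2. This order, and differences close to that of Epha2, follow from choosing the genes on these same arrays. All 3 lie on chromosome 4 in the gene table of assembly GRCm38.p6, as do Epha2 and Tdrd7, where 6.57% of the tested genes lie on that chromosome. A shared chromosome does not place these genes near Tdrd7, and distances were not examined. None of the 3 was called, with differences of -0.23 for St3gal3, -0.35 for Oscp1 and -0.20 for Svbp (limma adjusted p = 0.964 each). For Cdh1 the nearest genes were F2r, a thrombin receptor gene (0.0463), Chrnb1, an acetylcholine receptor subunit gene (0.0517), and Pdpn, the podoplanin gene (0.0582), on 3 different chromosomes. For Cdh2 they were Qrsl1 (0.0172), Copa (0.0244) and Nsa2 (0.0308), which varied little at brighter signals, while the Cdh2 probe lay near background.

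**Figure D4:**
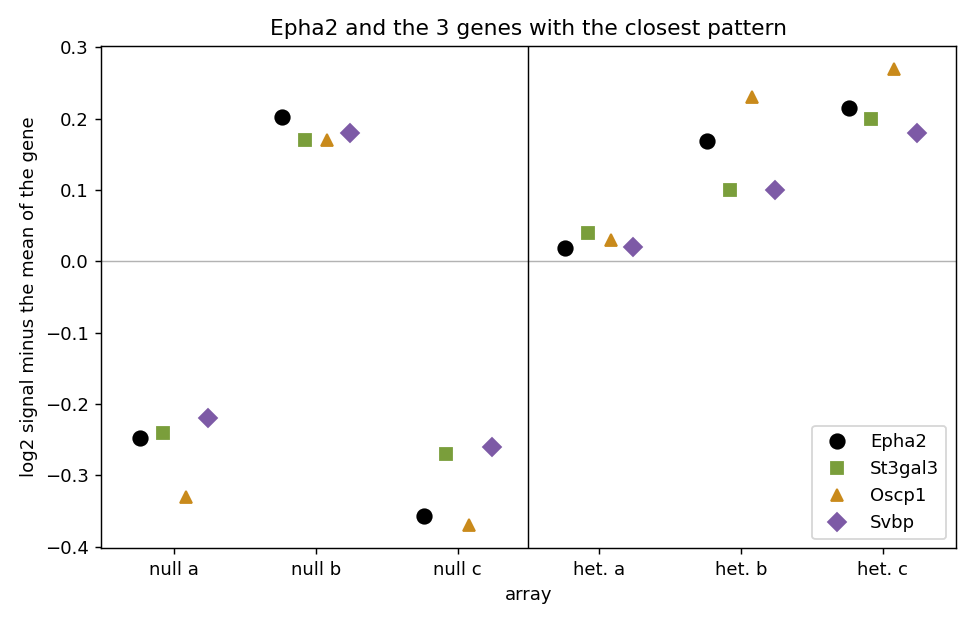
Log2 signal minus the gene's own mean over the 6 arrays (vertical axis) on each array (horizontal axis) for Epha2 and the 3 genes closest to it. On null arrays a and c all 4 genes lie between -0.37 and -0.22, and on null array b all 4 lie above 0. The 3 genes were chosen for this likeness.

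The wider Eph and ephrin families were thinly detected. Of 12 other Eph receptors 2 were measured and 0 were called: Epha4 differed by -0.15 (SE 0.147) and Ephb4, the usual partner of ephrin-B2, by -0.14 (SE 0.226), with a second Ephb4 probe at -0.02. Of 5 other ephrins 2 were measured and 0 were called. Efna1 differed by 0.01. Efna4 had log2 signals of 4.79, 5.49 and 4.98 on the null arrays, against 4.67, 4.72 and 4.78 on the heterozygous arrays, where it was not well above background on any. The null mean of Efna4 was at least 1.21-fold the bound set by the lowest detected signal of each heterozygous array, but the 95% interval of the fitted fold, 0.951 to 1.73, includes no change (limma adjusted p = 0.964). Its groups did not overlap. It was tested through its 3 null arrays, so that a lack of overlap is no separate finding. The other Efna4 probe, detected on 2 null arrays and 0 heterozygous arrays, was not tested and gives no bound above 1.

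Signalling partners of Eph receptors showed no common direction. Of 17 listed genes 14 were measured, 7 with a higher and 7 with a lower mean in null lens, 0 called, and the median difference was -0.01. The largest difference belonged to Cttn, the gene of the actin regulator cortactin (0.33, SE 0.206, other probes 0.28 and 0.04), and the next to Vav2 (-0.24, SE 0.196). Rasa1, a Ras GTPase-activating protein gene, differed by 0.22, the kinase gene Src by 0.19, the phosphatase gene Ptpn1 by 0.18 and the adaptor gene Nck1 by -0.15.

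Of 10 other cadherins only Cdh4, the R-cadherin gene, was measured, and it differed by -0.21 (SE 0.195), with a second probe at 0.09. Of 19 other catenin and adherens junction genes 13 were measured, 8 higher and 5 lower on average in null lens, with a median of 0.03 and 0 called. Arvcf, a relative of p120-catenin, had the smallest p among them. Its mean was 6.70 ± 0.25 in null and 6.30 ± 0.10 in heterozygous lens (SD, n = 3 each), a difference of 0.40 (SE 0.171, limma adjusted p = 0.964), and its groups did not overlap. A second Arvcf probe gave 0.20. The groups of Ctnnbip1, an inhibitor of beta-catenin, did not overlap either, with a difference of 0.26 (SE 0.155). These were 2 of the 13 genes, both with null lens above. Among all 8626 tested genes the groups did not overlap for 451 with null lens above and 529 with null lens below. Actn1, an actin crosslinker gene, differed by -0.36, the vinculin gene Vcl by -0.29, Actn4 by 0.24 and Ctnnal1 by 0.19.

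The precision of the design bounds what these differences can show. The 95% interval of a member probe reached 0.399 log2 units to either side at the median, the same as over all tested probes. For Ctnna1 the interval spans a null signal from 0.755 to 1.24 of the heterozygous one, and for Efnb2 from 0.524 to 1.15, so a moderate change of these genes in either direction was not detectable with 3 arrays a group.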

How the data were processed

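RNA was amplified and labelled with biotin for Illumina arrays, per the labels' protocols. The deposited raw table holds a linear probe intensity and a detection p-value per array, per the file headers. The deposited value table holds the same intensity values as normalised by the authors, linear and not centred, and how they did so is not given in the sources used here. Each of its columns matched 1 raw column of the same genotype in rank. Raw columns name the genotype alone. The scanner software is not given in the sources used here.

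Probes were named from the platform annotation, with symbols checked against the RefSeq gene table of GRCm38.p6. In R 4.3.3 with limma 3.58.1, raw intensities went through neqc (normexp fitted from the detection p-values, an offset of 16, quantile normalisation, log2). A probe was tested if its detection p was under 0.05 on 3 or more of the 6 arrays. Null and heterozygous arrays were compared with lmFit and eBayes in a two-sided test with no covariate, and p-values were adjusted over 14636 probes by Benjamini-Hochberg, with a threshold of 0.05. The brightest tested probe stands for a gene. All 10 members and Tdrd7 are named, with up to 6 genes of each pathway list, those with the largest differences, and the 3 genes most like Epha2, Cdh1 and Cdh2. Members and lists were chosen with earlier results of these data known. Steps were tested on simulated data. Alternatives covered background, normalisation, filter, variance model, weights, replicate block and left-out arrays. Leaving out null array b and heterozygous array c together, and the count of members lower in null lens, were added after seeing the data.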

Additional observations from a re-analysis of the deposited data

How the results depend on the processing

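The number of member probes called was 0 under every alternative listed here. Without any 1 array the adjusted p of the closest member probe stayed at 0.698 or above, and with array weights it was 0.316. Tdrd7 differed by -3.56 to -3.37 and was called under every alternative. Over all probes 2 were called, against 1 without the filter, 13 with array weights and 1 with the replicate block, and 1 to 4 with 1 array left out. The lower mean in null lens for 10 of 10 members became 5 with array weights and 5 to 10 with 1 array left out. The weights were 0.208 for null array b and 3.44 for null array a, so the weighted null mean leaned on null array a. With the strict filter 8 of the 8 members still tested were lower, Epha5 and Cdh2 having too few detected arrays. With array weights Efnb1 differed by 0.01, Cdh1 by 0.03, Cdh2 by 0.03, Ctnnb1 by 0.07 and Ctnnd1 by 0.23. Without null array b and heterozygous array c Ctnnb1 differed by 0.06, Ctnna1 by 0.01 and Ctnnd1 by 0.24. With 1 array left out the difference ran for Epha2 from -0.44 to -0.16, Epha5 from -0.24 to 0.01, Efna5 from -0.19 to -0.02, Efnb1 from -0.15 to 0.09, Efnb2 from -0.60 to -0.08, Cdh1 from -0.37 to 0.12, Cdh2 from -0.16 to 0.01, Ctnnb1 from -0.16 to 0.17, Ctnna1 from -0.14 to 0.06 and Ctnnd1 from -0.21 to 0.17. Cdh1 minus Cdh2 differed by 0.04 with median scaling and by -0.32 to 0.20 with 1 array left out. The cause of these turns was not tested beyond the arrays named.

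Replicate numbers are carried by the authors' table alone. Deviations of same-numbered arrays from their group means correlated at 0.158, -0.154 and -0.147, and not every array correlated best with its own number. These values gave no clear sign of pairing. Whether equal numbers mark a shared litter or day is not known. The replicate block, fitted on the authors' values, called 0 member probes. Probes of Epha5 and Cdh2 lay near background, where the signal bounds what can be seen.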

Other observations

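The likeness of Epha2 to genes of its own chromosome was followed one step further, after the first 3 genes had been seen and with no test. Of the 20 genes nearest to Epha2 by the same measure 4 lay on chromosome 4, the fourth being Prdm2 in place 19, where 6.57% of the tested genes lie there. For the other 9 members between 0 and 2 of the 20 nearest genes lay on the member's own chromosome.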
